A study of Mus musculus with 6 samples.

Results

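The tumour necrosis factor (TNF) ligand and receptor superfamilies were followed in wounded mouse skin through 35 genes, 12 of them ligands and 23 receptors, of 19938 genes measured. Members were taken by a naming rule: the symbols Tnf, Lta, Ltb, Cd40, Fas and Cd27 and every symbol starting with Tnfsf or Tnfrsf. Members, roles, pairs and lists were chosen with earlier results of these data known, so counts of them describe these samples and are not a test. Each member had 1 probe set on the Affymetrix gene array. The 3 groups were wounds at day 1, wounds at day 4 and intact skin of BALB/c mice, an inbred albino strain, with 2 arrays in each. All animals were males of 5 to 6 weeks with no labelled genotype or drug, and the backs of the mice were shaved before 2 punch wounds of 4 mm were cut through the skin on either side of the midline. Tissue was lifted with an 8 mm punch, so by punch diameters the wound as cut was 25% of the sample area and the skin around it the rest. The size of the wounds on day 1 and day 4 was not measured here. The labels call the replicates biological and do not say whether a sample was 1 wound, 1 animal or a pool, so n counts arrays and the p-values measure only the spread between these samples.

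TNF superfamily ligands are mostly trimeric proteins of the cell membrane that can also be shed, and their receptors carry cysteine-rich repeats outside the cell. Receptors with a death domain can start cell death, whereas others bind TRAF adaptors and switch on NF-kB, and decoy receptors bind a ligand without passing a signal. In skin, TNF is known as an early product of activated macrophages, neutrophils and keratinocytes after injury, and many of the other members act between T cells, B cells and antigen-presenting cells.

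Array levels are given as log2 intensities, where a step of 1 is a 2-fold difference, and levels of different genes are not set against each other because probes differ in brightness. A gene is said to have risen or fallen where limma, fitted over all genes and all 6 arrays, gave a Benjamini-Hochberg adjusted p under 0.05. The arrays had close distributions, with medians of 6.89 to 6.93 and lower quartiles of 5.29 to 5.37, and replicates correlated across genes at r = 0.9891 (day 1), 0.9861 (day 4) and 0.9967 (intact skin), where genes are not independent. Of the 35 members, 32 lay above the lower quartile on every array. Tnfsf4 and Tnfsf8 lay under it on all 6 arrays and Tnfsf18 on 1 array of intact skin. Signal over background was not tested.

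In day 1 wounds 17 of the 35 members were higher than in intact skin (48.6%) and 2 were lower (5.71%), where the shares over the whole array were 14.7% and 14.6% (29.3% together). On day 4 the members higher than in intact skin numbered 14 (40%) and those lower 2 (5.71%), beside 14.8% and 12.1% over the whole array (26.9% together). The median log2 change of the members was 0.31 on day 1 and 0.11 on day 4, against −0.04 and −0.03 over all genes. All 14 members that were higher on day 4 had also been higher on day 1, though both comparisons share the intact arrays. The largest rises were those of Tnf and its receptor Tnfrsf1b, followed by Fas and the decoy receptor Tnfrsf23, and 15 members passed in neither comparison. Between the days, 2 members were lower on day 4 than on day 1 and none was higher, where 1.14% of all genes were lower and 1.09% higher (2.23% together). Without intact skin replicate 1 the members called on day 1 were 13 higher and 0 lower. On day 4 they were 7 higher and 1 lower without day 4 wound replicate 2, and 9 higher and 1 lower without either intact array. Between the days none passed without any 1 array other than day 4 wound replicate 2, which left 1.

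**Figure D1:**
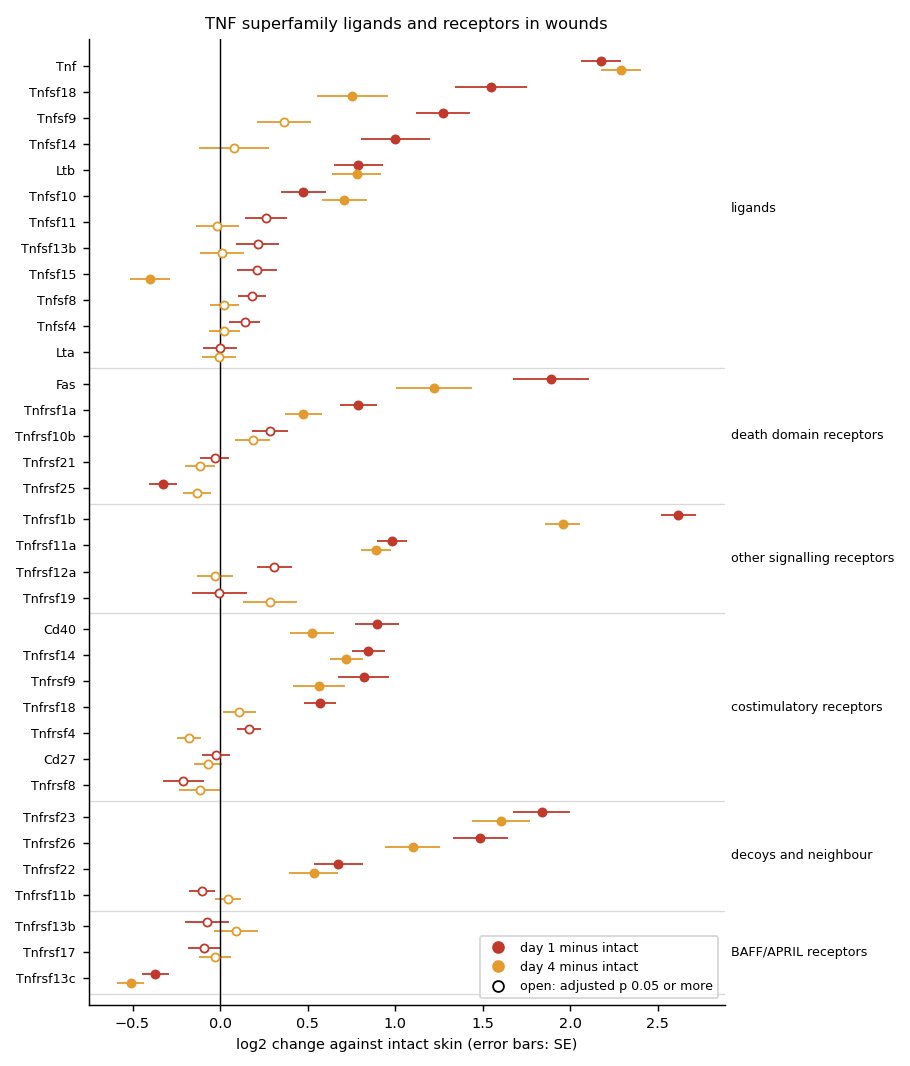
Log2 change of each of the 35 members in day 1 and in day 4 wounds against intact skin, grouped by role, with bars of 1 SE and open points where the adjusted p was 0.05 or more (2 arrays per group). The farthest points to the right are Tnfrsf1b at 2.62 on day 1 and Tnf at 2.29 on day 4, and Tnfrsf13c lies left of 0 on both days.

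Of the 12 ligands, 6 rose on day 1 and 4 on day 4, where 14.7% and 14.8% of all genes did. The largest rises among the ligands were those of Tnf, the founding cytokine of the family. Without day 4 wound replicate 2 only Tnf and Ltb rose on day 4. Tnf measured 8.52 and 8.54 in day 1 wounds and 8.48 and 8.81 in day 4 wounds, against 6.34 and 6.37 in intact skin. All 4 wound arrays lay more than 2 log2 units above both intact arrays, and the days overlapped. The log2 change was 2.17 (SE 0.11, 4.52-fold, limma adjusted p = 0.000101) on day 1 and 2.29 (SE 0.11, 4.89-fold, adjusted p = 0.000163) on day 4, with 0.12 (SE 0.11) between the days (adjusted p = 0.651). Ltb, a membrane-bound lymphotoxin, had 7.23 and 7.42 in day 1 wounds and 7.36 and 7.27 in day 4 wounds, against 6.73 and 6.34 in intact skin. Its level was the same on both days within the spread of the arrays, 1.73-fold above intact skin on day 1 (adjusted p = 0.00774) and 1.72-fold on day 4 (adjusted p = 0.00978). Lta, the secreted lymphotoxin that pairs with Ltb, did not pass: it had 5.32 and 5.54 in day 1 wounds and 5.37 and 5.48 in day 4 wounds, against 5.42 and 5.44 in intact skin. The day 1 call of Ltb was lost without day 1 wound replicate 2 (adjusted p = 0.058).

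Tnf, Ltb and Lta lie next to each other on chromosome 17, with no other coding gene of the RefSeq table between them, and Lta did not pass in samples where the other two rose. Their starts are shown to set these neighbours side by side: the 250 bases before each gene start from RefSeq, assembly GRCm38.p6, 5′ to 3′ on the gene's strand. Capitals mark TATAAA, the TATA box letters, or the 10-base NF-kB consensus, both searched on either strand.
Tnf (chr17:35202008-35202257, minus strand): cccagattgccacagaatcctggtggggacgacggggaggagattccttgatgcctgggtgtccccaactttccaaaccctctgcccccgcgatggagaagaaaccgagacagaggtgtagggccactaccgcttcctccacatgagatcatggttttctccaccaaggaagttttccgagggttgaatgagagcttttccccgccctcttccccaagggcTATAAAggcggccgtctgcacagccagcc
Ltb (chr17:35194257-35194506, plus strand): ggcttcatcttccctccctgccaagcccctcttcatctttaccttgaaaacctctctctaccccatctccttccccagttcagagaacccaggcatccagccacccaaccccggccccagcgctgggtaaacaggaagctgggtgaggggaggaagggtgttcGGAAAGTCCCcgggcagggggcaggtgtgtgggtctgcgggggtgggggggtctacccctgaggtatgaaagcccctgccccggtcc
Lta (chr17:35205352-35205601, minus strand): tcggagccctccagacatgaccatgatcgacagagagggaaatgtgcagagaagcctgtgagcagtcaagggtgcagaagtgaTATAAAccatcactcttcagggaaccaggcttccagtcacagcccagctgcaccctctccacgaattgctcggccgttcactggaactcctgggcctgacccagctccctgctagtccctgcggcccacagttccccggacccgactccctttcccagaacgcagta
In Tnf, TATAAA lay 29 to 24 bases before the start, and in Lta 167 to 162 bases before it. Ltb held the NF-kB consensus, read on the opposite strand, 87 to 78 bases before its start. Starts of 28 members were in the RefSeq table. Of these 4 held the NF-kB consensus, where 5.67% of 27025 genes with a start in the table did, and 6 held TATAAA, where 14.3% of genes did, and no member held both. The consensus stood before 2 of the 13 members that rose on either day (Ltb and Tnfrsf9) and before 2 of the 15 others (Tnfrsf8 and Tnfrsf25). A match of letters is a description and shows no binding.

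Of the ligands of costimulatory receptors, Tnfsf18, Tnfsf9 and Tnfsf14 rose on day 1, and of these Tnfsf9 alone passed the test between the days. Tnfsf18, the ligand of the T cell receptor GITR, had 6.57 and 6.73 in day 1 wounds and 5.84 and 5.88 in day 4 wounds, against 4.77 and 5.44 in intact skin. It stood 2.92-fold above intact skin on day 1 (log2 change 1.54, SE 0.20, adjusted p = 0.00248) and 1.69-fold on day 4 (adjusted p = 0.0377), and the intact arrays were far apart. Day 4 lay 0.79 below day 1, which did not pass (adjusted p = 0.11). Tnfsf9, the CD137 ligand, had 7.31 and 7.12 in day 1 wounds and 6.10 and 6.51 in day 4 wounds, against 5.84 and 6.04 in intact skin. It rose 2.42-fold on day 1 (log2 change 1.27, SE 0.15, adjusted p = 0.00177), and on day 4 the change of 0.37 did not pass (adjusted p = 0.131). The day 4 change hung on the array, at 0.57 without day 4 wound replicate 1. Day 4 wounds lay below day 1 wounds for Tnfsf9 by 0.91 (SE 0.15, adjusted p = 0.0446). For Tnfsf14, known as LIGHT, the levels were 7.05 and 7.55 in day 1 wounds and 6.16 and 6.60 in day 4 wounds, against 6.32 and 6.28 in intact skin. It was 2-fold higher on day 1 (log2 change 1.00, SE 0.20, adjusted p = 0.0113), and the 2 day 4 arrays lay on either side of intact skin. The fall of 0.92 between the days did not pass (adjusted p = 0.0762). The day 4 call of Tnfsf18 did not hold without any 1 array other than intact skin replicate 2, with adjusted p of 0.066 to 0.141. That of Tnfsf14 on day 1 was lost without day 1 wound replicate 2 (0.0581) or without intact skin replicate 1 (0.0673) or 2 (0.0704), and the fall of Tnfsf9 between the days held only without day 4 wound replicate 2, with 0.106 to 0.179 without any other array and 0.0518 after quantile normalization.

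The death ligand Tnfsf10, known as TRAIL, had 7.43 and 7.07 in day 1 wounds and 7.49 and 7.48 in day 4 wounds, against 6.85 and 6.70 in intact skin. It was 1.39-fold higher on day 1 (adjusted p = 0.035) and 1.64-fold on day 4 (log2 change 0.71, SE 0.13, adjusted p = 0.00976). On day 1 this call held only without day 1 wound replicate 2 among the arrays left out in turn (adjusted p of 0.0582 to 0.166 without any other), and on day 4 it was lost without day 4 wound replicate 2 (0.0513) or intact skin replicate 2 (0.0681). Tnfsf15, the TL1A ligand of endothelial and myeloid cells, was the one ligand called lower, on day 4. It had 6.90 and 6.63 in day 1 wounds and 6.07 and 6.24 in day 4 wounds, against 6.57 and 6.54 in intact skin. Day 4 lay 1.32-fold below intact skin (log2 change −0.40, SE 0.11, adjusted p = 0.0422), a call lost without any 1 of the day 4 or intact arrays (0.0711 to 0.175), with cyclic loess (0.0649) and with replicate number as a block (0.0567). Tnfsf11 (RANK ligand), Tnfsf13b (the B cell survival factor BAFF), Tnfsf4 (OX40 ligand) and Tnfsf8 (CD30 ligand) did not pass on either day, with changes between −0.02 and 0.26. Tnfsf11 had 7.92 and 8.22 in day 1 wounds and 7.73 and 7.86 in day 4 wounds, against 7.88 and 7.74 in intact skin.

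Both TNF receptors rose, and Tnfrsf1b, the one that lacks a death domain and is found mainly on leukocytes and endothelium, had the largest change of any member on day 1. Tnfrsf1b had 9.73 and 9.70 in day 1 wounds and 9.0 and 9.11 in day 4 wounds, against 6.98 and 7.22 in intact skin. It was 6.13-fold above intact skin on day 1 (log2 change 2.62, SE 0.10, adjusted p = 4.01e-05) and 3.88-fold on day 4 (log2 change 1.96, SE 0.10, adjusted p = 0.000165). The 3 groups did not overlap, and day 4 lay below day 1 by 0.66 (SE 0.10, adjusted p = 0.0372), a call lost with any 1 of the 6 arrays left out (adjusted p of 0.0806 to 0.181). Tnfrsf1a, the death domain receptor that most cell types carry, had 10.66 and 10.92 in day 1 wounds and 10.41 and 10.54 in day 4 wounds, against 9.97 and 10.03 in intact skin. It rose 1.73-fold on day 1 (log2 change 0.79, SE 0.11, adjusted p = 0.00274) and 1.39-fold on day 4 (0.47, SE 0.11, adjusted p = 0.0209). The day 4 call was lost without day 4 wound replicate 2 (0.103) or without intact skin replicate 1 (0.118) or 2 (0.0818).

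**Figure D2:**
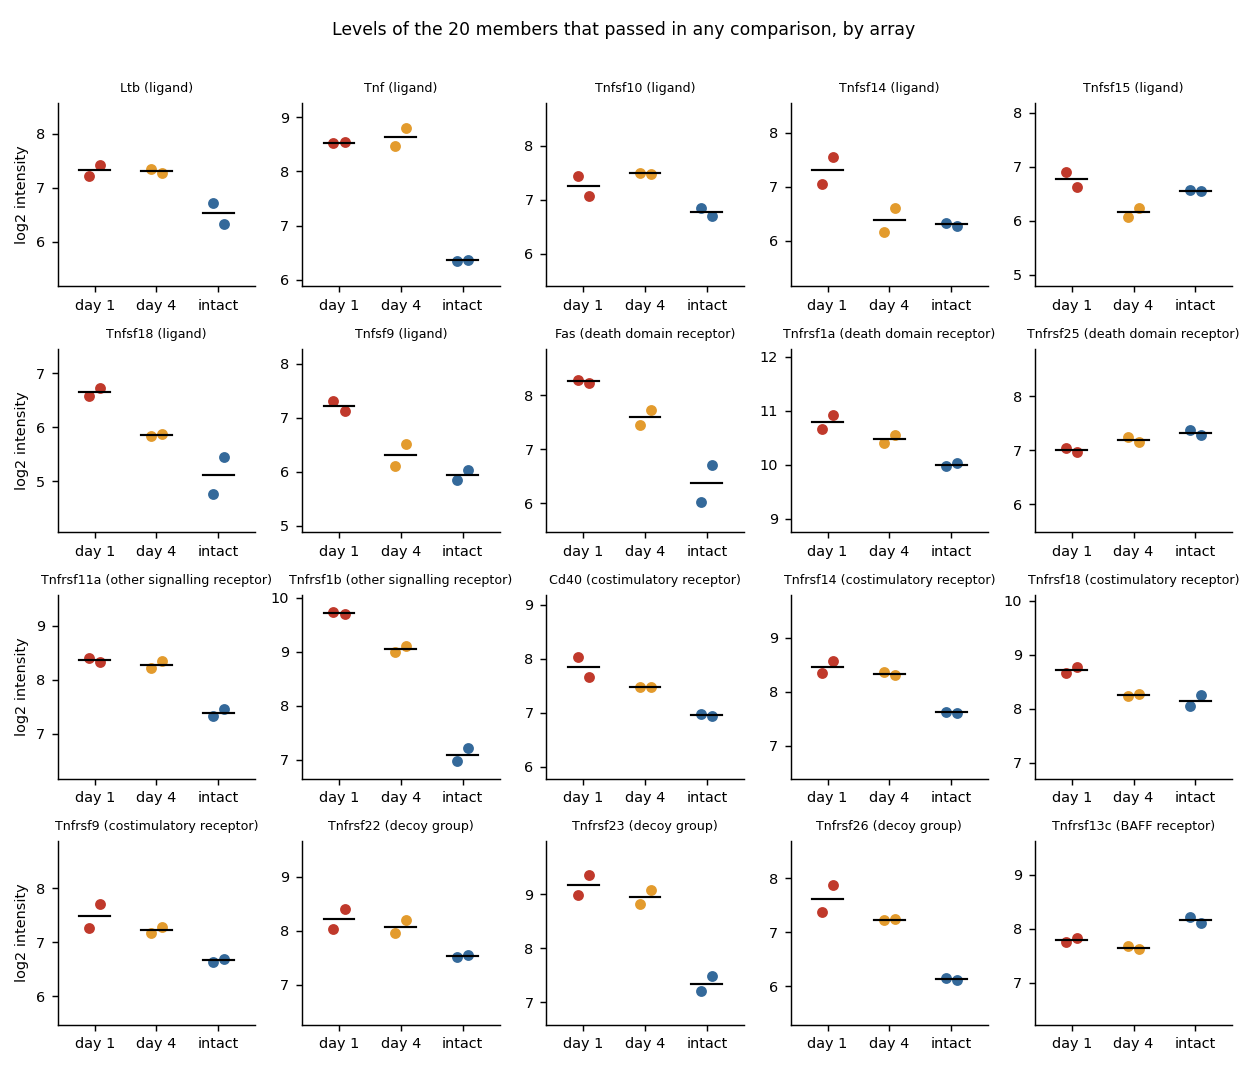
Log2 intensity on each array for the 20 members that passed in any comparison, with points for arrays and a line for the mean of 2 arrays in day 1 wounds, day 4 wounds and intact skin, every panel spanning the same height. Tnf stayed near its day 1 level on day 4, at 8.48 and 8.81, while Tnfsf14 had 6.16 and 6.60 on day 4, on either side of its intact level.

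Of the 5 death domain receptors, Fas and Tnfrsf1a rose on both days and Tnfrsf25 fell on day 1. The shares over all genes were 14.7% higher and 14.6% lower on day 1, and 14.8% and 12.1% on day 4. Fas, which triggers apoptosis on binding its ligand, had 8.29 and 8.23 in day 1 wounds and 7.45 and 7.73 in day 4 wounds, against 6.03 and 6.71 in intact skin. It was 3.71-fold higher on day 1 (log2 change 1.89, SE 0.22, adjusted p = 0.00144) and 2.33-fold on day 4 (1.22, SE 0.22, adjusted p = 0.0092, and 0.0582 without day 4 wound replicate 2). Among the members the intact arrays lay farthest apart for Fas and Tnfsf18, and in both cases replicate 2 was the higher one. Markers of monocytes and macrophages also had a higher mean on intact replicate 2 (8.29) than on replicate 1 (7.84), and their part in this spread was not tested. Tnfrsf25, the receptor of Tnfsf15, had 7.03 and 6.97 in day 1 wounds and 7.24 and 7.15 in day 4 wounds, against 7.38 and 7.27 in intact skin. Its fall by 0.33 on day 1 (SE 0.08, adjusted p = 0.0256) was lost without any 1 of the day 1 or intact arrays (0.0613 to 0.141) and with cyclic loess (0.0553). Tnfrsf10b, the mouse TRAIL death receptor, and Tnfrsf21, known as DR6, did not pass. Tnfrsf10b had 7.80 and 7.95 in day 1 wounds and 7.66 and 7.89 in day 4 wounds, against 7.59 on both intact arrays, with adjusted p of 0.0842 on day 1 (0.0364 with cyclic loess) and 0.23 on day 4.

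Tnfrsf11a, the RANK receptor of osteoclast precursors, dendritic cells and keratinocytes, rose while its ligand did not pass. It had 8.41 and 8.33 in day 1 wounds and 8.22 and 8.34 in day 4 wounds, against 7.33 and 7.45 in intact skin. The groups of both days overlapped each other and stood clear of intact skin, 1.97-fold higher on day 1 (log2 change 0.98, SE 0.09, adjusted p = 0.000566) and 1.85-fold on day 4 (0.89, SE 0.09, adjusted p = 0.00111). Tnfrsf11b (osteoprotegerin), the soluble decoy for RANK ligand, had 7.46 and 7.38 in day 1 wounds and 7.58 and 7.56 in day 4 wounds, against 7.55 and 7.50 in intact skin, and passed on neither day. Tnfrsf12a, the TWEAK receptor Fn14, had 9.66 and 9.91 in day 1 wounds and 9.43 and 9.46 in day 4 wounds, against 9.43 and 9.52 in intact skin. Its day 1 change of 0.31 (SE 0.10) did not pass (adjusted p = 0.0632), and it did pass without day 1 wound replicate 1 (0.0299). Tnfrsf19, known as TROY and expressed in hair follicles, did not pass, with 8.46 and 8.26 in day 1 wounds and 8.45 and 8.85 in day 4 wounds, against 8.48 and 8.25 in intact skin.

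Of the 7 costimulatory receptors, 4 rose on day 1, and Cd40, Tnfrsf14 and Tnfrsf9 were also higher on day 4. Among all genes 14.7% were higher on day 1 and 14.8% on day 4. Cd40, through which T cells activate antigen-presenting cells, had 8.03 and 7.66 in day 1 wounds and 7.48 and 7.47 in day 4 wounds, against 6.97 and 6.93 in intact skin. It was 1.86-fold higher on day 1 (log2 change 0.90, SE 0.12, adjusted p = 0.00299) and 1.44-fold on day 4 (0.53, SE 0.12, adjusted p = 0.0245). Tnfrsf14, the HVEM receptor of Tnfsf14 and Lta, had 8.35 and 8.57 in day 1 wounds and 8.37 and 8.30 in day 4 wounds, against 7.62 and 7.61 in intact skin. It kept apart from intact skin on both days, 1.80-fold higher on day 1 (adjusted p = 0.00126) and 1.65-fold on day 4 (adjusted p = 0.00301). Tnfrsf9, the CD137 receptor of activated T cells, had 7.26 and 7.71 in day 1 wounds and 7.18 and 7.28 in day 4 wounds, against 6.64 and 6.69 in intact skin. Its rise was 1.77-fold on day 1 (adjusted p = 0.00769) and 1.48-fold on day 4 (adjusted p = 0.0326). Tnfrsf18, the GITR receptor, had 8.67 and 8.77 in day 1 wounds and 8.24 and 8.28 in day 4 wounds, against 8.05 and 8.25 in intact skin. It rose 1.48-fold on day 1 (adjusted p = 0.00544), and the day 4 arrays overlapped intact skin (adjusted p = 0.423). Tnfrsf4 (OX40), Cd27 and Tnfrsf8 (CD30) did not pass on either day, with changes between −0.21 and 0.17, though Tnfrsf4 passed as lower on day 4 with quantile normalization (−0.25, adjusted p = 0.0325). The day 4 calls of Cd40 and Tnfrsf9 were lost without any 1 of the day 4 or intact arrays (adjusted p of 0.0838 to 0.114 for Cd40 and 0.0804 to 0.153 for Tnfrsf9), and the day 1 call of Tnfrsf9 without intact skin replicate 1 (0.0581).

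The mouse genes Tnfrsf22 and Tnfrsf23, which encode decoy receptors for TRAIL, and the related Tnfrsf26 are neighbours on chromosome 7, and all of them rose on both days. Tnfrsf23 had 8.99 and 9.36 in day 1 wounds and 8.81 and 9.08 in day 4 wounds, against 7.20 and 7.48 in intact skin. It was 3.57-fold higher on day 1 (log2 change 1.83, SE 0.16, adjusted p = 0.000617) and 3.04-fold on day 4 (1.60, SE 0.16, adjusted p = 0.00135). Tnfrsf26 had 7.37 and 7.87 in day 1 wounds and 7.23 and 7.24 in day 4 wounds, against 6.16 and 6.11 in intact skin, 2.80-fold higher on day 1 (adjusted p = 0.00106) and 2.14-fold on day 4 (adjusted p = 0.00402). Tnfrsf22 changed least of the neighbours, with 8.03 and 8.40 in day 1 wounds and 7.96 and 8.19 in day 4 wounds, against 7.52 and 7.56 in intact skin. It was 1.60-fold higher on day 1 (adjusted p = 0.0134) and 1.45-fold on day 4 (adjusted p = 0.0337), and it lost both calls without either intact array (0.0686 to 0.154), on day 1 also without day 1 wound replicate 2 (0.0581) and on day 4 without day 4 wound replicate 2 (0.155). These genes are related in sequence, and whether their probe sets pick up each other's transcripts was not tested.

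Receptors of the B cell survival factors BAFF and APRIL did not rise. Tnfrsf13c, the BAFF receptor, was the one member lower on both days, with 7.76 and 7.82 in day 1 wounds and 7.67 and 7.63 in day 4 wounds, against 8.21 and 8.11 in intact skin. The groups did not overlap, and Tnfrsf13c stood 1.29-fold below intact skin on day 1 (log2 change −0.37, SE 0.08, adjusted p = 0.013) and 1.42-fold below on day 4 (−0.51, SE 0.08, adjusted p = 0.00482). The day 1 call was lost without day 1 wound replicate 1 (0.0623) or intact skin replicate 1 (0.0864). Tnfrsf13b (TACI) lay between 7.22 and 7.55 and Tnfrsf17 (BCMA) between 5.75 and 5.99 over the 6 arrays, and neither passed. Of 7 other B and plasma cell markers, 1 was lower on day 1, and on day 4 1 was higher and 1 lower. Among all genes 14.6% were lower on day 1, and 14.8% higher and 12.1% lower on day 4. The lower marker on both days was Blnk. Ms4a1, Cd79a and Cr2 lay under the lower quartile on all 6 arrays, and Jchain, the higher one, on 5. The mean level of the 7 markers was 5.37 and 5.30 in day 1 wounds and 5.62 and 5.55 in day 4 wounds. In intact skin it was 5.62 and 5.47, and the part of B cells in the fall of Tnfrsf13c was not tested.

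For 20 chosen pairs over the 12 ligands, known ligand and receptor partners were set side by side, with Ltbr, the lymphotoxin beta receptor, added for Ltb. The choice did not take in every known partner, and Ltbr was paired with Ltb alone, so the counts below are of these 20 pairs only. On day 1 both partners were higher in 8 pairs of 6 ligands: Tnf with both of its receptors, Tnfsf10 with the decoys Tnfrsf22 and Tnfrsf23, Ltb with Ltbr, and Tnfsf9, Tnfsf14 and Tnfsf18 with a receptor each. On day 4 this held for 4 pairs of 2 ligands, Tnf and Tnfsf10. Pairs of the same ligand share its values, so they are not separate results. Of single genes over the whole array 14.7% were higher on day 1 and 14.8% on day 4. The pairs called on day 1 fell to 3 without intact skin replicate 1 (Tnf with both receptors and Tnfsf18), to 4 without intact skin replicate 2, and to 5 without day 1 wound replicate 2, without either day 4 array or with only the 2 groups compared. On day 4 only Tnf with Tnfrsf1b was left without day 4 wound replicate 2 or without intact skin replicate 2, and 2 pairs without intact skin replicate 1. Of the genes that left the list, Tnfsf9 was lower on day 4 than on day 1 by the test between the days, and Tnfsf14 (adjusted p = 0.0762), Tnfrsf18 (0.0669) and Ltbr (0.14) did not pass it. Ltbr was 1.34-fold higher on day 1 (adjusted p = 0.0347), a call lost without any 1 array other than day 1 wound replicate 1 (0.0569 to 0.14). The ligands of Fas, Cd40 and Cd27, whose symbols fall outside the naming rule, did not pass on either day. Fasl and Cd40lg lay under the lower quartile of all 6 arrays and Cd70 under that of 5, so their levels were near the dim end of the array. Fasl changed by 0.08 on day 1 (SE 0.07, adjusted p = 0.465), Cd40lg by 0.06 (SE 0.11, adjusted p = 0.717) and Cd70 by −0.21 (SE 0.11, adjusted p = 0.219).

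Further superfamily genes of other names included Eda2r and Relt, which were higher on both days. Eda2r, a receptor of ectodysplasin A2, had 7.11 and 7.24 in day 1 wounds and 6.62 and 7.35 in day 4 wounds, against 5.68 and 5.74 in intact skin, 2.76-fold higher on day 1 (adjusted p = 0.00388) and 2.42-fold on day 4 (adjusted p = 0.00804). Relt was 1.69-fold higher on day 1 (adjusted p = 0.00194) and 1.32-fold on day 4 (adjusted p = 0.0235). Edaradd, the death domain adaptor of the ectodysplasin receptor Edar in hair and other skin appendages, fell by 0.70 on day 1 (SE 0.08, adjusted p = 0.00175) and by 0.47 on day 4 (SE 0.08, adjusted p = 0.00923). Hair shaft and root sheath markers were lower in the same wounds, 10 of 10 on day 1 and 6 of 10 on day 4. The day 1 count was 4 without day 1 wound replicate 2, without either intact array or with a robust prior, and the day 4 count was 10 without day 4 wound replicate 1. Their part in the fall of Edaradd was not tested. Edar, Eda and Ngfr, the neurotrophin receptor, did not pass. Ngfr changed by −0.385 on day 4 (SE 0.12, limma adjusted p = 0.0646), and by −0.565 without day 4 wound replicate 2. It passed as lower with quantile normalization (0.0284), cyclic loess (0.0425) and replicate number as a block (0.0437). Of the 10 genes on this list 3 were higher and 1 lower on day 1 and 2 higher and 1 lower on day 4. The lower one on both days was the adaptor Edaradd. Over the whole array 14.7% of genes were higher and 14.6% lower on day 1, and 14.8% and 12.1% on day 4. The medians of the list were 0.03 and −0.04, against −0.04 and −0.03 over all genes. No gene was higher on day 4 without either intact array. The day 4 calls of Eda2r and Relt were lost without intact skin replicate 1 (0.0625 and 0.132) or 2 (0.052 and 0.075), that of Relt also without day 4 wound replicate 2 (0.109), and that of Edaradd without intact skin replicate 1 (0.0691).

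Downstream of the receptors, 18 of 33 signalling genes measured were higher and 4 lower on day 1, at a median of 0.40. On day 4, 14 were higher and 3 lower, at a median of 0.20 (4 more of the list were not analysed here). The shares over the whole array were 14.7% higher and 14.6% lower on day 1, and 14.8% and 12.1% on day 4. With arrays left out singly, the 14 higher on day 4 became 8 (day 4 wound replicate 2 removed), 7 (intact skin replicate 1 removed) or 9 (intact skin replicate 2 removed). The 4 lower on day 1 became 0 when intact skin replicate 1 was removed, and 1 for intact skin replicate 2 or day 1 wound replicate 2. The largest rises on day 1 were those of Tnfaip3, Mlkl, Birc3 and Ripk3. Tnfaip3, the ubiquitin-editing inhibitor A20, had 9.28 and 9.22 in day 1 wounds and 8.50 and 8.63 in day 4 wounds, against 7.37 and 7.33 in intact skin, 3.73-fold higher on day 1 (adjusted p = 5.1e-05) and 2.32-fold on day 4 (adjusted p = 0.000335). Mlkl, the executioner of necroptosis, was 3.18-fold higher on day 1 (adjusted p = 0.00031) and 2.32-fold on day 4 (adjusted p = 0.0013). Ripk3, the kinase that activates it, was 2.65-fold higher on day 1 (adjusted p = 0.00121) and 1.82-fold on day 4 (adjusted p = 0.00945). Birc3, an inhibitor of apoptosis that binds TRAF adaptors, was 3.0-fold higher on day 1 (adjusted p = 0.000362) and 2.36-fold on day 4 (adjusted p = 0.00119). Nfkbia, the NF-kB inhibitor, was 2.61-fold higher on day 1 (adjusted p = 0.000402) and 1.94-fold on day 4 (adjusted p = 0.002). The genes lower on day 1 were Traf4 (by 0.48), Tab3 (by 0.47), Map3k5 (by 0.42) and Tab1 (by 0.36), of which Traf4, Map3k5 and Tab3 were also lower on day 4. The day 1 falls of Traf4, Tab3 and Tab1 were lost without day 1 wound replicate 2 or either intact array (adjusted p of 0.0508 to 0.0864), and that of Map3k5 without day 1 wound replicate 1 (0.0519) or intact skin replicate 1 (0.0754). On day 4 Ripk3 lost its call without day 4 wound replicate 2 (0.0546) or intact skin replicate 1 (0.0723), and Tab3 without intact skin replicate 1 (0.055) or 2 (0.0637).

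Among the 6 genes that release TNF family proteins from the membrane or inhibit that release, 2 rose and 1 fell on each day. Of all genes 14.7% rose and 14.6% fell on day 1, and 14.8% and 12.1% on day 4. Adam17, the TNF-converting enzyme, had 9.91 and 10.05 in day 1 wounds and 9.97 and 9.99 in day 4 wounds, against 9.02 and 9.33 in intact skin. It was 1.75-fold higher on day 1 (adjusted p = 0.00354) and 1.75-fold on day 4 (adjusted p = 0.0044). Adam8, a protease of myeloid cells, had 10.34 and 10.75 in day 1 wounds and 9.51 and 9.84 in day 4 wounds, against 6.74 and 7.27 in intact skin, 11.6-fold higher on day 1 (adjusted p = 0.000174) and 6.36-fold on day 4 (adjusted p = 0.000674). Timp3, the tissue inhibitor that blocks Adam17, was lower on both days, by 0.59 on day 1 (SE 0.12, adjusted p = 0.0121) and 0.70 on day 4 (SE 0.12, adjusted p = 0.00757). Its day 1 call was lost without either intact array (0.0628 and 0.078) and its day 4 call without intact skin replicate 1 (0.06). Adam10, Rhbdf1 and Rhbdf2 passed on neither day.

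**Figure D3:**
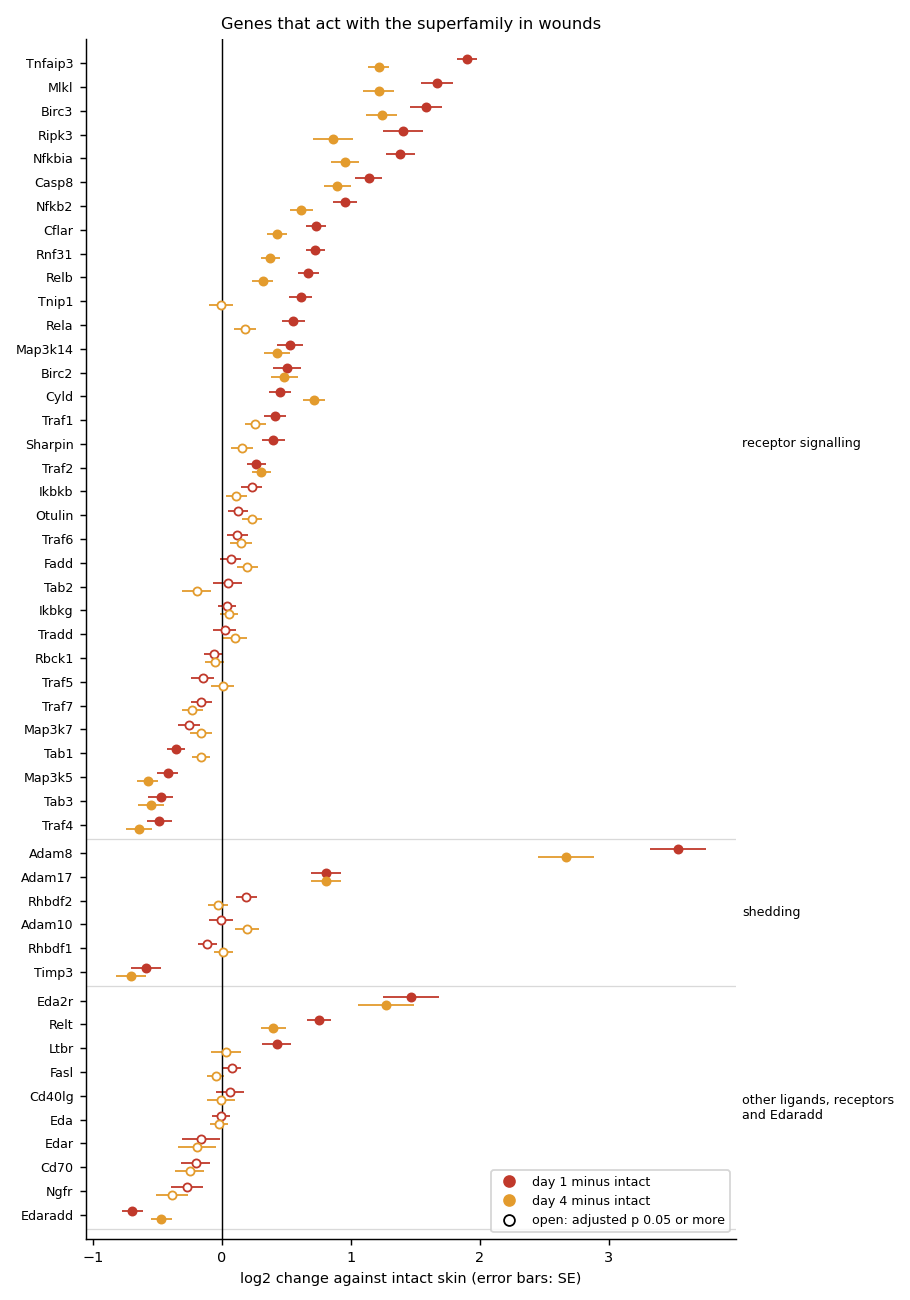
Log2 change in day 1 and in day 4 wounds against intact skin for 33 receptor signalling genes and 6 genes of shedding. A further 10 genes are superfamily ligands and receptors of other names and the adaptor Edaradd (2 arrays per group). Bars show 1 SE, and points are open where the adjusted p was 0.05 or more. Adam8 lies farthest right at 3.54 on day 1, and Tnfaip3, Mlkl and Birc3 lead the signalling genes.

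Whole skin holds many cell types, so in these samples more cells of a type and more RNA per cell cannot be told apart. The marker lists of neutrophils and of monocytes and macrophages had the largest median rises on both days, and genes of most other lists rose as well. Among all genes 14.7% were higher on day 1 and 14.8% on day 4. Of 10 neutrophil markers 8 were higher on day 1 and 7 on day 4, and their mean level was 9.45 and 9.85 in day 1 wounds and 8.49 and 8.76 in day 4 wounds, against 6.16 and 6.26 in intact skin. All 10 markers of monocytes and macrophages measured were higher on both days, with means of 10.14 and 10.31 in day 1 wounds and 10.24 and 10.29 in day 4 wounds, against 7.84 and 8.29 in intact skin. Of 8 T cell markers 3 were higher on each day, with means of 6.69 and 6.64 in day 1 wounds and 6.74 and 6.82 in day 4 wounds, against 6.39 and 6.25 in intact skin. Endothelial markers were higher for 6 of 8 on day 1 and 7 of 8 on day 4 (2 without intact skin replicate 1). Between the days 3 neutrophil markers were lower and none higher on day 4 than on day 1, and 1 was lower without day 1 wound replicate 2, day 4 wound replicate 1 or either intact array. Of the monocyte and macrophage markers, 2 were higher and 1 was lower on day 4 than on day 1. Of the T cell markers 1 was higher, and no endothelial marker passed between the days. Over the whole array 1.09% of genes were higher and 1.14% lower on day 4 than on day 1. The part of these cells in the rises of Tnf, Tnfrsf1b, Fas and the other members was not tested. Basal keratinocyte markers, which check the labelled tissue, had means of 11.34 and 11.29 in day 1 wounds and 11.24 and 11.28 in day 4 wounds, against 10.91 and 10.97 in intact skin.

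**Figure D4:**
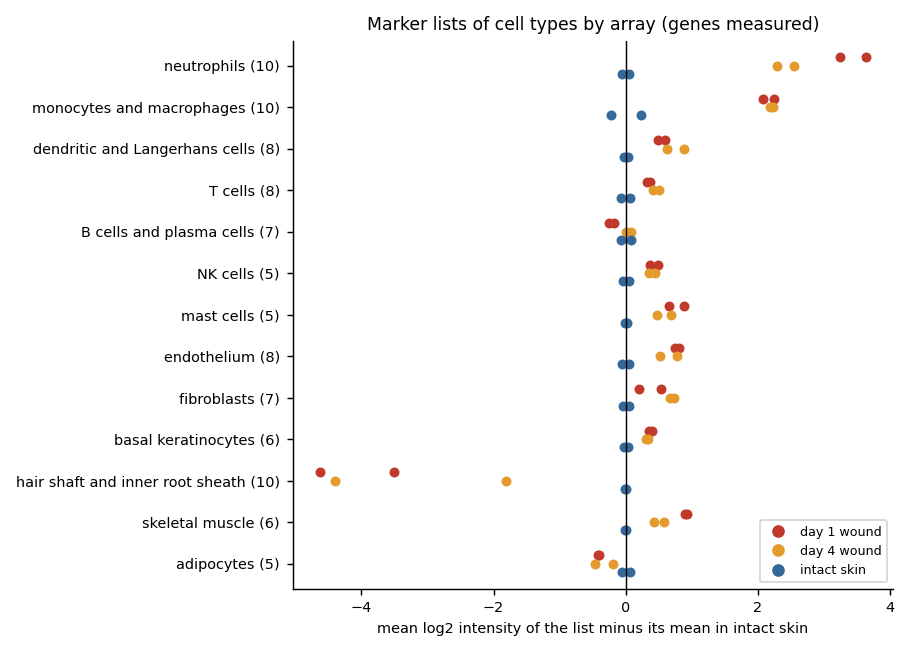
Mean log2 intensity of each marker list on each array, minus the list's mean in intact skin, with the number of genes measured in brackets. Neutrophil and macrophage lists lie farthest right in wounds, and the hair list farthest left, with its day 4 arrays apart at 8.97 and 6.40 in level.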

How the data were processed

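RNA of 6 skin samples was measured on Affymetrix arrays for mouse genes. The authors deposited a log2 intensity for every probe set, to 2 decimals. Per the submitters' processing notes these came from RMA, version not stated there. RMA is a method that corrects background, normalizes arrays and summarises probes. RNA integrity numbers were 7.7 to 9.1, per the labels' protocols. Of 35556 probe sets, 21789 carried 1 symbol, 1621 several (1 with symbols of the naming rule, not used here) and 12146 were not in the annotation. The probe set with the highest mean was kept per gene, and all 35 members kept their symbols in RefSeq.

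Tests used limma 3.58.1 under R 4.3.3 (a mean per group, default eBayes, 3 residual and 3.4 prior degrees of freedom), two-sided, with Benjamini-Hochberg adjustment over 19938 genes at 0.05, tested on simulated data. Members that passed in any comparison were named with all values, and list genes by the 4 largest changes in each direction. The members, roles, pairs and lists were chosen with earlier results of these data known. Alternatives were quantile normalization, cyclic loess, median centring, a trend or robust prior, only the 2 groups compared, removal of the dimmest 30% of genes, the mean of all probe sets, replicate number as a block, and each array left out. A group left with 1 array was taken to vary like the others. The number of arrays limits precision.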

Additional observations from a re-analysis of the deposited data

Results flagged for a closer look

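The changes on the 2 days against intact skin differed for 4 of the genes described, by the test of day 4 against day 1 wounds. These were 2 of the 35 members and 2 of the 33 signalling genes, where 2.23% of all genes passed that test. Tnfrsf1b was lower on day 4 by a log2 change of −0.66 (limma adjusted p = 0.0372) and Tnfsf9 by −0.91 (adjusted p = 0.0446). Of the signalling genes, Tnfaip3 differed by −0.685 (adjusted p = 0.0228) and Tnip1, which works with it, by −0.615 (adjusted p = 0.0361). Tnip1 had 7.66 and 7.74 in day 4 wounds, against 8.22 and 8.41 in day 1 wounds. With only the 2 groups compared none of the 4 calls held (limma adjusted p of 0.0833 to 0.106). All 4 had both day 4 arrays below both day 1 arrays, as 22% of all genes did. They were chosen by the test on these same arrays, so this order adds no support. The call of Tnfaip3 held only without day 4 wound replicate 2 and that of Tnip1 with no array left out (adjusted p up to 0.127 and 0.17). Groups of 2 arrays are too small to test single arrays as outliers.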

How the results depend on the processing

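No member that passed changed sign under any of the alternatives. With an array left out this was fixed in advance, since the groups compared did not overlap for any called member. The prior, 2-group, dim-gene, probe set and block settings do not alter a member's log2 change, so only the normalizations could have turned a sign. Of the 19 member calls on day 1, 12 held under every alternative that kept the gene, and of the 16 on day 4, 8 did, while neither of the 2 between the days held throughout. With 1 array left out, members called numbered 13 to 18 on day 1, 8 to 15 on day 4 and 0 to 1 between the days, and all genes called 3149 to 5673, 2246 to 4907 and 14 to 184. The lowest counts for members came without intact skin replicate 1 on day 1 and without day 4 wound replicate 2 on day 4, and without intact skin replicate 1 or 2 day 4 had 10. Fewer arrays leave fewer degrees of freedom. Between the days, 5 members passed with cyclic loess, which also made 38.6% of calls over all genes higher instead of 48.9%, and 0 members and 17 genes with only the 2 groups compared. That setting also ended the calls of Tnfsf10 on day 1 (adjusted p = 0.0582) and Tnfsf18 on day 4 (0.066). The filter on dim genes removed 7 members, Tnfsf18 among those called. Deviations of arrays with the same replicate number correlated at 0.685 between the wound days but at 0.0139 and 0.0227 between either day and intact skin, and the labels tie the numbers to nothing, so they were not taken as pairs. With the replicate block, 15 of 16 day 4 member calls held, Tnfsf15 being lost at −0.40 (adjusted p = 0.0567), and Tnfrsf12a passed on day 1 (0.0453) and Tnfsf14 between the days (0.0452). Tnfsf15 passed as lower on day 4 than on day 1 with quantile normalization, cyclic loess, median centring or a robust prior (0.0421 to 0.0494), Tnfrsf18 with quantile normalization (0.0483) or cyclic loess (0.0428), and Tnfrsf4 with cyclic loess (0.0453) or without the dimmest genes (0.0476). The last setting also let Tnfrsf12a pass on day 1 (0.0499).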

Other observations

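Genes that RANK signalling is known to drive in osteoclasts were followed beside Tnfrsf11a. Of 7 such genes 3 were higher on day 1, and on day 4 2 were higher and 1 lower, at medians of 0.17 and 0.03. Of all genes 14.7% were higher on day 1, and 14.8% were higher and 12.1% lower on day 4. Ctsk, a collagen-degrading cathepsin that fibroblasts also make, had 11.03 and 11.52 in day 1 wounds and 11.71 and 11.68 in day 4 wounds, against 10.04 and 9.92 in intact skin. It was 2.45-fold higher on day 1 (limma adjusted p = 0.00178) and 3.28-fold on day 4 (adjusted p = 0.000952). Nfatc1, the transcription factor of the osteoclast programme, was 1.52-fold higher on day 1 (adjusted p = 0.0198) and 1.45-fold on day 4 (adjusted p = 0.0323), and Ocstamp 1.38-fold on day 1 (adjusted p = 0.0177). The day 1 call of Nfatc1 was lost without any 1 of the day 1 or intact arrays (0.0629 to 0.109) and that of Ocstamp without day 1 wound replicate 2 or either intact array (0.0654 to 0.103). The lower gene, Calcr, a receptor of the hormone calcitonin, changed by −0.27 (SE 0.07, adjusted p = 0.0375). Its call was lost with any 1 array left out (0.0594 to 0.177), with quantile normalization (0.0633), cyclic loess (0.0856), a trend prior (0.0514) or only the 2 groups compared (0.0594). On day 4 Nfatc1 kept its call only without day 4 wound replicate 1 (0.0534 to 0.152 without any other).

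Among the remaining marker lists, 5 of 8 dendritic and Langerhans cell genes were higher on day 1 and 6 on day 4, with 1 lower each time. The shares over all genes were 14.7% higher and 14.6% lower on day 1, and 14.8% and 12.1% on day 4. Mast cell genes were higher for 4 of 5 on both days, natural killer cell genes for 2 of 5 and fibroblast genes for 4 of 7, 1 fibroblast gene being lower. Basal keratinocyte genes were higher for 4 of 6 on both days. Of 6 skeletal muscle genes all were higher on day 1 and 4 on day 4. Of 5 adipocyte genes 3 were lower on day 1 and 2 on day 4. Without intact skin replicate 1 these counts on day 4 were 3 dendritic, 1 mast, 0 natural killer, 2 basal keratinocyte and 2 muscle genes higher, and 1 adipocyte gene lower on each day. On day 1 they were 4 dendritic, 0 natural killer and 2 basal keratinocyte genes higher.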
